A study of Mus musculus with 14 samples.

Results

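Gng12, Spop, Mal2, Tppp and Arpc5 are 5 genes whose mRNA was plentiful in hippocampal input RNA and scarcer in RNA recovered from the tagged ribosomes of parvalbumin (PV) neurons. They were chosen for a strong deficit, seen in every library, in ribosome-bound RNA of non-defeated mice against input RNA, out of 39017 genes in the count table, and all 5 were among the 21298 genes left after a filter on low counts. The libraries of non-defeated mice and of input therefore chose these genes, and their difference is described here without a test. The choice set no threshold, and other genes were as low or lower. Among 9316 protein-coding genes with a mean of at least 10 normalized CPM (read counts scaled to library size) in input, ordered from the lowest ratio, Gng12 stood at place 14, Mal2 at 60, Arpc5 at 98, Spop at 120 and Tppp at 141.

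The study asked how PV neurons of the hippocampus differ between mice that withstand repeated social defeat and mice that do not. Translating ribosome affinity purification (TRAP) captures ribosomes that carry EGFP fused to the ribosomal protein L10a, together with the mRNA attached to them, and these mRNAs were sequenced. All mice were male, of C57BL/6 background and 8 to 12 weeks old when behavioral work began, and carried both a Cre-dependent EGFP-L10a allele and PV-Cre (EGFP-L10a+; PV-Cre+), so the tag was present in whichever cells had used PV-Cre. Both hippocampi of 1 mouse made 1 TRAP sample. Non-defeated TRAP (n = 4) came from mice that met no aggressor. Resilient TRAP (n = 4) and susceptible TRAP (n = 3) came from mice exposed to chronic social defeat stress (CSDS) and divided by a social interaction ratio above or below 1. Input (n = 3) was, by the series description, total RNA of non-defeated mice taken before TRAP. The labels of these input samples instead name translating RNA, and the description was followed here. No defeated mouse had an input library, so an effect of stress on the whole hippocampus cannot be told apart from one on the captured RNA.

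The 5 proteins have unlike jobs. Gng12 is a gamma subunit of heterotrimeric G proteins, which carry signals from receptors at the membrane to enzymes and channels inside the cell. Spop is the substrate-binding adaptor of a cullin-3 ubiquitin ligase, Mal2 is a membrane protein of the MARVEL family that takes part in moving cargo across polarized cells, Tppp binds and bundles microtubules and is well known from oligodendrocytes, and Arpc5 is a subunit of the Arp2/3 complex, which starts branches on actin filaments. PV neurons are fast-spiking inhibitory cells that make up a small part of the hippocampus, most of whose neurons are excitatory.

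Total counts ran from 64110214 to 94726962 per library, and each of the 5 genes had between 784 and 68723 counts in a library. The capture was checked on Pvalb, which encodes parvalbumin itself and had 25.4 ± 6.03 normalized CPM (SD, n = 3) in input and 1464 ± 134 (n = 4) in non-defeated TRAP. Red blood cell genes varied between libraries. The summed level of 4 of them (Hba-a1, Hba-a2, Hbb-bs and Alas2) was 98.0 to 201 normalized CPM in non-defeated TRAP. It was 109 to 500 in resilient TRAP, 742 to 1003 in susceptible TRAP and 644 to 819 in input. For 5 RNAs that mostly stay in the nucleus (Malat1, Neat1, Meg3, Miat and Snhg11), the summed level was 96.2 to 159 in susceptible TRAP. In the other TRAP libraries it was 47.1 to 91.7. The share of all genes that were higher in every susceptible library was not counted, so nothing is read from the lack of overlap.

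Gng12 had the deepest deficit of the 5. Input libraries held 98.8, 104 and 99.8 normalized CPM, and non-defeated TRAP libraries held 11.5, 12.3, 12.6 and 13.4. The resilient libraries held 14.6, 14.1, 13.5 and 16.003, and the susceptible ones 11.6, 10.6 and 14.8. Every TRAP library lay far below every input library, and within TRAP the resilient libraries lay slightly above the non-defeated ones. The mean went from 101 ± 3.03 in input (SD, n = 3) to 12.4 ± 0.771 in non-defeated TRAP (n = 4), which is 12.3% of input and a log2 fold change of -3.02 (SE 0.11). Of the 500 tested genes nearest to Gng12 in input level, 1 was as low or lower. Exons of Gng12 share 125 of their 4727 bases with a transcript from the opposite strand, 4930597O21Rik, and no source used here says whether counting used strand. The gene lies on chromosome 6 from 66896397 to 67021350, plus strand, in GRCm38 (mm10).

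Mal2 came next. Its input values were 168, 202 and 162 normalized CPM, more spread than those of the other 4 genes (coefficient of variation 11.9%). Non-defeated TRAP gave 30.7, 33.2, 32.8 and 34.7, resilient TRAP 33.4, 29.9, 34.2 and 27.4, and susceptible TRAP 34.3, 33.1 and 33.3. The TRAP groups overlapped throughout, and all 11 TRAP libraries lay below the input libraries. Its mean in non-defeated TRAP, 32.9 ± 1.68 (SD, n = 4), was 18.5% of the input mean of 177 ± 21.1 (n = 3), a log2 fold change of -2.43 (SE 0.10). Among the 500 genes nearest in input level, 6 were as low or lower. Mal2 lies on chromosome 15 from 54571192 to 54602847, plus strand.

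Arpc5 was retained at 22.0% of input. Its input values were 331, 338 and 295 normalized CPM, and its non-defeated TRAP values 70.2, 69.4, 66.8 and 75.7. Resilient TRAP libraries held 70.5, 82.3, 66.4 and 68.4, and susceptible ones 73.5, 83.7 and 87.7. The last group was the highest of the TRAP groups on average but overlapped both others. The mean was 321 ± 23.0 in input (SD, n = 3) and 70.5 ± 3.74 in non-defeated TRAP (n = 4), a log2 fold change of -2.19 (SE 0.09). Among the 500 genes nearest in input level, 14 were as low or lower. Arpc5 lies on chromosome 1 from 152766542 to 152775597, plus strand.

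Spop was retained at 23.6% of input. The 3 input libraries held 369, 387 and 362 normalized CPM, and the 4 non-defeated TRAP libraries 93.4, 81.5, 87.4 and 89.7. The resilient values were 96.8, 102, 90.7 and 83.3, and the susceptible values 83.9, 93.5 and 86.4. No TRAP group stood apart from another for this gene. Means were 373 ± 13.1 in input (SD, n = 3) and 88.0 ± 4.99 in non-defeated TRAP (n = 4), with a log2 fold change of -2.08 (SE 0.08). Of the 500 genes nearest in input level, 15 were as low or lower. Spop lies on chromosome 11 from 95414080 to 95493406, plus strand.

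Tppp was the most abundant of the 5 in input and the one retained most, at 24.7%. Its input values were 739, 754 and 767 normalized CPM. The non-defeated TRAP libraries held 176, 175, 212 and 181, the resilient ones 198, 207, 181 and 203, and the susceptible ones 159, 163 and 141. The 3 susceptible libraries were the lowest of all 14, and 1 non-defeated library, at 212, was the highest in TRAP. The mean went from 753 ± 14.1 in input (SD, n = 3) to 186 ± 17.6 in non-defeated TRAP (n = 4), a log2 fold change of -2.02 (SE 0.08). Among the 500 genes nearest in input level, 18 were as low or lower. Few genes were this abundant, so those 500 ranged widely, from 282 to 1992 normalized CPM in input. Around Gng12 the range was 91.0 to 112. Tppp lies on chromosome 13 from 74009407 to 74035753, plus strand.

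**Figure D1:**
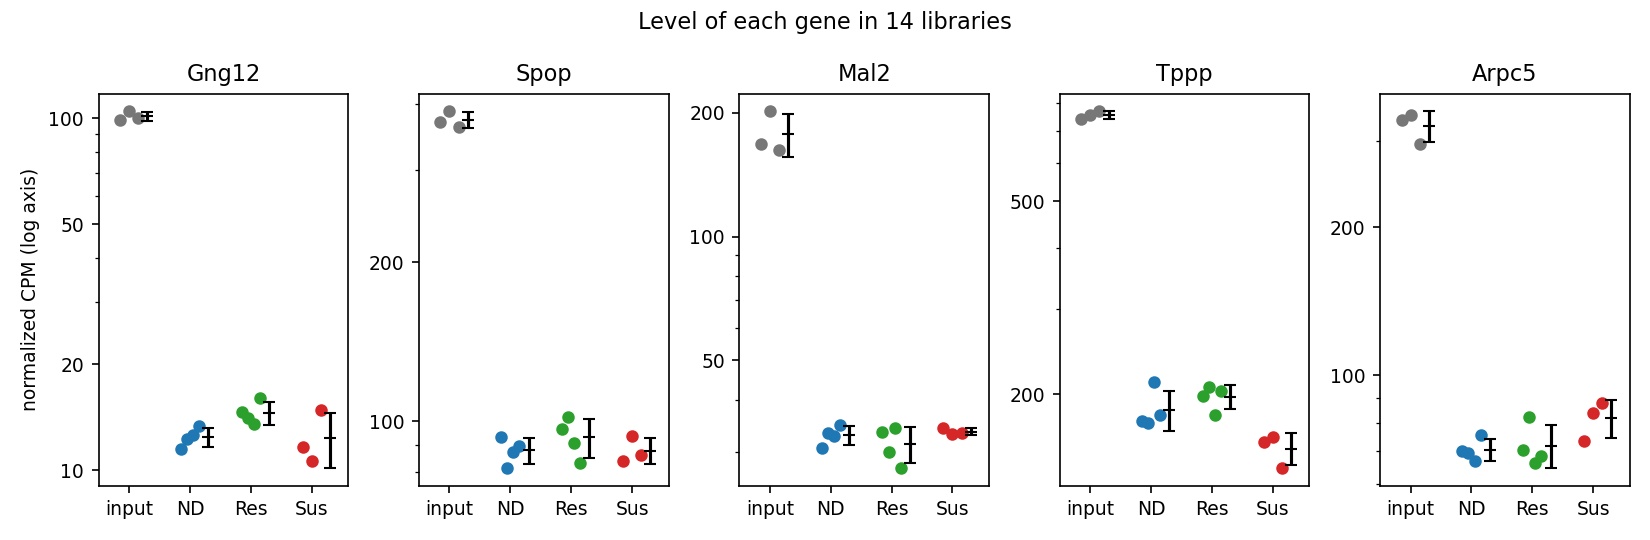
Normalized CPM (log axis, own range for each gene) of Gng12, Spop, Mal2, Tppp and Arpc5 in 3 input, 4 non-defeated (ND), 4 resilient (Res) and 3 susceptible (Sus) libraries; each point is a library and the bar beside it the mean ± SD. All TRAP points lie below all input points for each gene, and the 3 susceptible libraries are the lowest for Tppp.

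For all 5 genes, every one of the 11 TRAP libraries lay below every one of the 3 input libraries. This pattern held for 25.1% of the 21298 genes tested, and the choice of the genes fixed it for the non-defeated libraries, so nothing is read from it. The depth of the deficit differed among the genes. Taken over single non-defeated libraries, Gng12 kept 11.4% to 13.2% of its input mean, Mal2 17.3% to 19.6%, Arpc5 20.8% to 23.6%, Spop 21.9% to 25.1% and Tppp 23.2% to 28.1%. Gng12 and Mal2 each stood clear of the next gene in that order, whereas Arpc5, Spop and Tppp overlapped their neighbours.

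The resilient and susceptible libraries were compared with the same 3 input libraries, so their values are set side by side only. Gng12 kept 14.4% of its input mean in resilient and 12.2% in susceptible TRAP, Mal2 17.6% and 18.9%, Arpc5 22.4% and 25.4%, Spop 24.998% and 23.6%, and Tppp 26.2% and 20.5%. In tissue samples of this kind, fewer contributing cells and less RNA per cell cannot be told apart. By the series description, TRAP and input differ besides in the kind of RNA, ribosome-bound against total, and this cannot be told apart from a difference in cells.

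Levels can be compared between genes only per length, as RPKM, here normalized CPM divided by the exonic length in kilobases. On that scale Tppp had 147.7 ± 2.76 RPKM in input (SD, n = 3), Arpc5 141 ± 10.1, Spop 118 ± 4.13, Mal2 60.1 ± 7.15 and Gng12 21.4 ± 0.641. Tppp and Arpc5 overlapped in input within their spread, and the other steps in this order exceeded it. In non-defeated TRAP the same order held, at 36.4 ± 3.45 RPKM for Tppp (n = 4), 31.0 ± 1.64 for Arpc5, 27.9 ± 1.58 for Spop, 11.1 ± 0.570 for Mal2 and 2.63 ± 0.163 for Gng12, with Arpc5 and Spop overlapping. Among 15883 protein-coding genes ranked from the highest RPKM, Tppp moved from place 266 in input to 1574 in non-defeated TRAP, Arpc5 from 290 to 1821, Spop from 350 to 2001, Mal2 from 790 to 4061 and Gng12 from 2370 to 8348. Thus 4 of the 5 stayed among the better expressed genes of the captured RNA, while Gng12 moved to the middle of the range.

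The source cells of these transcripts cannot be read from bulk libraries, so the genes were set beside marker genes of known cell types. The 8 excitatory neuron markers ran from -2.47 (Neurod6) to -0.91 (Camk2a) in log2 fold change between non-defeated TRAP and input, and all 8 were lower by edgeR's quasi-likelihood test with an adjusted p under 0.05, against a background of 27.6% of genes called lower and 27.4% called higher. Lower calls also covered 9 of 9 oligodendrocyte markers, from -2.79 (Mog) to -0.86, with Mbp at -1.52, and 8 of 8 microglia markers, from -2.72 (Tmem119) to -0.61 (Csf1r). Astrocyte markers were lower in 6 of 8 cases, with Aqp4 lowest at -2.09, while Aldoc, the highest of them in input, did not pass (-0.27, adjusted p = 0.279 in edgeR). All 7 PV neuron markers were higher, by 1.498 (Gad2) or more, with Gad1, the highest of them in input, at 2.25. Pvalb rose most, by 5.85, whereas other markers of this list, Gad1 and Gad2 among them, are shared by other inhibitory neurons.

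Gng12 was lower than each of those excitatory, oligodendrocyte, astrocyte and microglia markers, and 3 of 5 nuclear-retained RNAs, Malat1 among them at -3.99, were as low or lower. Mal2 lay within the excitatory, oligodendrocyte and microglia ranges, with 1 of 8, 5 of 9 and 4 of 8 markers as low or lower, and below all 8 astrocyte markers. Arpc5 gave 2 of 8, 5 of 9 and 4 of 8 for the same lists and also lay below all astrocyte markers. Spop and Tppp lay within all 4 ranges, Spop with 2 of 8 excitatory and 1 of 8 astrocyte markers as low or lower and Tppp with 3 of 8 and 1 of 8. The log2 fold changes of Mal2, Arpc5, Spop and Tppp therefore did not single out 1 of these cell types.

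Other lists held fewer markers. Oligodendrocyte precursor markers were lower in 2 of 3 cases (Gpr17, highest in input and lowest in ratio, -2.15). Other interneuron markers were lower in 4 of 6, with Vip at -2.29 and Cck at -0.82, and higher in 2 (Sst at 1.61 and Npy at 2.79). Red blood cell genes were lower in 3 of 4, with Hba-a1 at -2.34 and Hbb-bs at -2.49, and nuclear-retained RNAs in 5 of 5. Mural markers were lower in 1 of 4 (Rgs5, -0.82), with Pdgfrb at -1.15 not passing (adjusted p = 0.0600 in edgeR). Endothelial markers were higher in 1 of 5 (Cldn5, 1.22), with Pecam1 at -0.36 not passing, and markers of choroid plexus and ependyma were lower in 1 of 3 (Ttr, -1.59) and higher in 1. No marker of any list was at 0 in every library of a group.

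Summed levels put the 5 genes beside whole lists. Excitatory markers together reached 2177 to 2586 normalized CPM in input and 736 to 985 in non-defeated TRAP, 36.0% of the input mean. Oligodendrocyte markers kept 33.3%, microglia markers 36.2%, astrocyte markers 65.0% and PV neuron markers 678%. The 5 genes kept between 12.3% and 24.7%, less than each of these sums. Red blood cell genes, at 19.4%, kept less than Arpc5, Spop and Tppp, and nuclear-retained RNA, at 8.81%, kept less than all 5. The most abundant markers weigh most in a sum. The median log2 fold change over single markers was -2.45 for oligodendrocyte and -2.22 for microglia markers, both lower than Arpc5, Spop and Tppp. It was -1.79 for excitatory and -1.65 for astrocyte markers, both higher than all 5 genes.

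**Figure D2:**
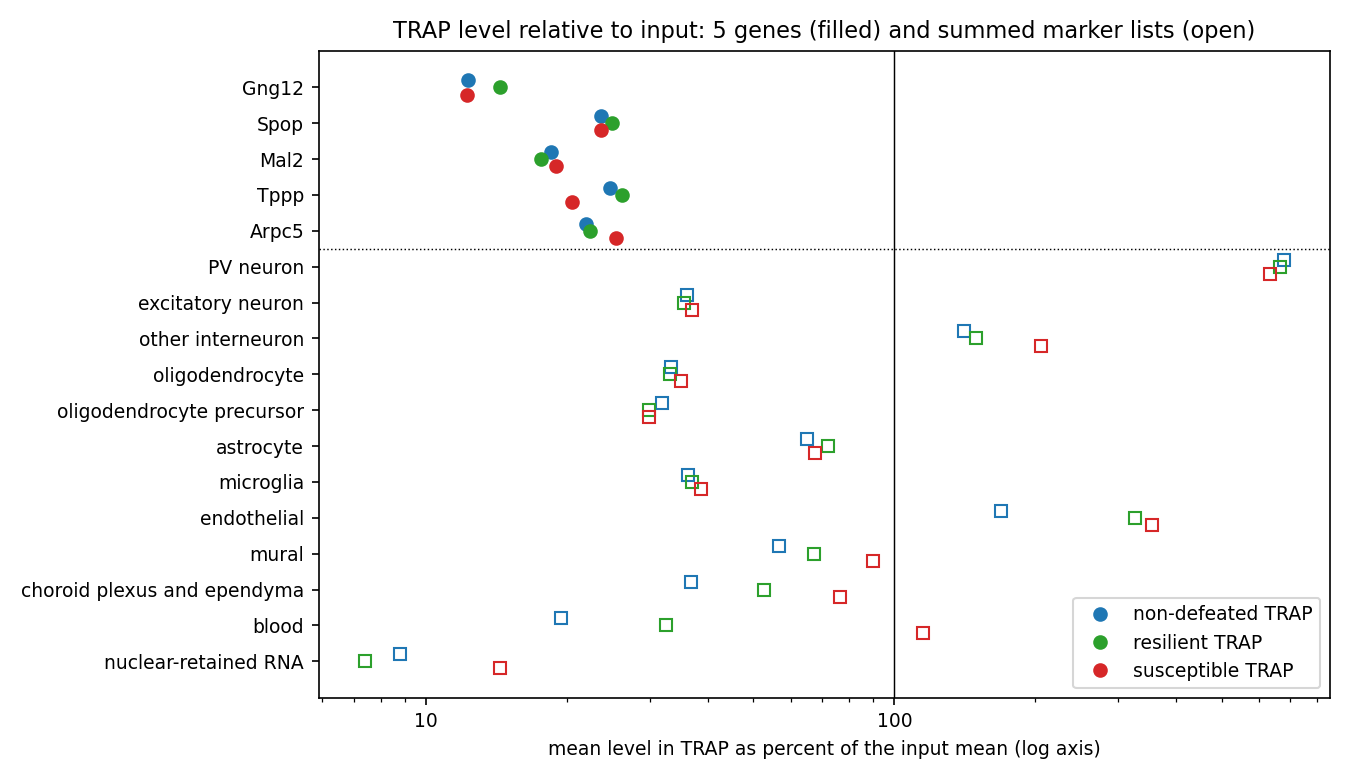
Mean level in each TRAP group as a percent of the mean of 3 input libraries (log axis), for Gng12, Spop, Mal2, Tppp and Arpc5 (filled circles) and for the summed normalized CPM of 12 marker lists (open squares), colored by group. In non-defeated TRAP the genes lie between 12.3% and 24.7% and the excitatory, oligodendrocyte and microglia sums between 33.3% and 36.2%; red blood cell genes go from 19.4% there to 115% in susceptible TRAP.

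Each gene was then set beside its relatives. Over 5 lists of related genes, without the 5 genes themselves, 44 were lower and 18 higher in non-defeated TRAP than in input in edgeR's quasi-likelihood test (adjusted p under 0.05). Over all tested genes 27.6% were called lower and 27.4% higher, the background for the counts of each list below. The G protein beta and gamma subunits, partners and relatives of Gng12, had 8 lower, 3 higher and 4 not passing of 15 tested, with a median log2 fold change of -0.69 against -0.04 over all genes. The lowest were Gngt2 (-1.998) and Gng11 (-1.99), and Gng10 was at -1.91. Gng3, a neuronal gamma subunit, was higher at 0.90 (SE 0.13) and Gnb5 at 0.28 (SE 0.08), whereas Gng5 did not pass (0.11, SE 0.24). Per length, Gng12 made up 4.03% ± 0.213 of the summed level of 11 gamma genes in input (SD, n = 3) and 0.521% ± 0.0927 in non-defeated TRAP (n = 4).

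Among 16 genes of the cullin-3 ligases, 5 were lower, 3 higher and 8 did not pass, with a median of -0.04, the same as over all genes. Klhl2 (-1.95) and Klhl3 (-1.33), substrate adaptors like Spop, were the lowest, and Nedd8 (1.03) and Ube2m (0.82), which act in switching cullins on, were the highest. Spopl, the closest paralog of Spop, did not pass (0.06, SE 0.07), with 75.6 ± 3.11 normalized CPM in input (SD, n = 3) and 78.7 ± 3.51 in non-defeated TRAP (n = 4). Spop therefore made up 94.1% ± 0.0376 of the summed RPKM of this pair in input and 78.4% ± 1.68 in non-defeated TRAP.

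The MARVEL domain genes had 11 lower, 4 higher and 6 not passing of 21 tested, with a median of -0.86. Pllp (-2.75) and Mal (-2.58), both known from myelin, were lower than Mal2 at -2.43, and Syngr3 (0.79), a synaptic vesicle protein, was higher. Mall, at 2.40, had under 1 normalized CPM in input and in non-defeated TRAP. Mal2 and its paralog Mal were low to a like extent, and the share of Mal2 in their summed RPKM was 72.7% ± 3.24 in input (SD, n = 3) and 74.8% ± 2.78 in non-defeated TRAP (n = 4), with overlapping ranges.

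Of 17 microtubule-binding genes, 6 were lower, 4 higher and 7 did not pass, with a median of -0.10. Map2 (-1.93), a dendritic microtubule protein, and Map6d1 (-1.75) were the lowest, and Stmn3 (1.76) and Map7d2 (1.40) the highest. Tppp, at -2.02, lay beside Map2, whereas its paralog Tppp3 did not pass (0.27, SE 0.25). Tppp made up 83.0% ± 1.21 of the RPKM of the pair in input (SD, n = 3) and 51.1% ± 10.3 in non-defeated TRAP (n = 4), the latter with a wide range of 38.5% to 61.7%.

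The Arp2/3 complex and its regulators had 14 lower, 4 higher and 6 not passing of 24, with a median of -0.63. Gmfg (-2.16), which had under 1 normalized CPM in both groups, and Abi1 (-1.41), a subunit of the WAVE complex, were the lowest. Arpin (0.999), an inhibitor of Arp2/3, and Wasf3 (0.46) were the highest. Arpc5l, the paralog that can take the place of Arpc5 in the complex, was higher in TRAP (0.38, SE 0.12, adjusted p = 0.0168), with 124 ± 3.62 normalized CPM in input (SD, n = 3) and 160 ± 15.5 in non-defeated TRAP (n = 4). Arpc5 made up 83.7% ± 0.661 of the RPKM of the pair in input and 46.5% ± 3.21 in non-defeated TRAP. Its share was 48.2% ± 2.82 in resilient (n = 4) and 47.6% ± 5.67 in susceptible TRAP (n = 3), so the pair was near balance in all 3 TRAP groups.

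**Figure D3:**
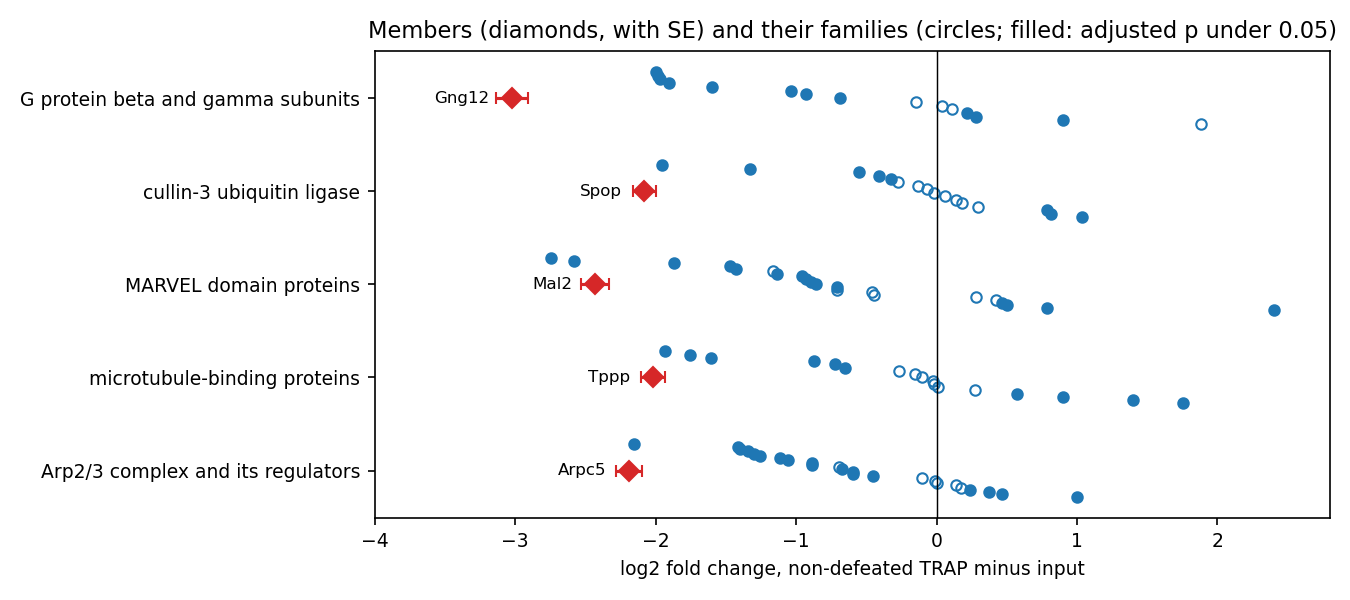
Log2 fold change of non-defeated TRAP (n = 4) over input (n = 3) for Gng12, Spop, Mal2, Tppp and Arpc5 (diamonds with SE, chosen on this contrast and not tested) and for their relatives (circles, filled where the adjusted p is under 0.05). Gng12, Spop, Tppp and Arpc5 lie at the low end of their lists, and 2 MARVEL genes lie below Mal2.

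The transcripts were compared for features that the choice did not use. Each gene was represented by its annotated transcript with the longest coding part, which need not be the main one in these cells. Gng12 had 9 annotated transcripts. On that basis all 5 coding sequences were shorter than the median of 1380 bases over 15883 protein-coding genes. They had 252 bases for Gng12 (percentile 1.30), 456 for Arpc5 (7.76), 528 for Mal2 (10.6), 657 for Tppp (16.7) and 1125 for Spop (38.8). The 500 genes nearest in coding length had a median log2 fold change of 0.53 around Gng12, 0.32 around Arpc5, 0.24 around Mal2, 0.18 around Tppp and -0.06 around Spop. The part of coding length in the deficit was not tested. The 3' untranslated regions of the same transcripts varied widely, from 312 bases in Gng12 (percentile 23.8) to 4338 in Tppp (95.1). GC content of these transcripts ran from 43.4% in Mal2 to 48.2% in Gng12, below the median of 50.7% for each gene.

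The stress comparisons within TRAP ask whether these low levels moved with defeat. Between resilient and non-defeated mice none of the 5 passed edgeR's quasi-likelihood test, where 0% of all genes passed and 4.38% had an unadjusted p under 0.05, nor did any pass in DESeq2. Gng12 alone of the 5 had an unadjusted p under 0.05. Its log2 fold change was 0.23 (SE 0.10, unadjusted p = 0.0408, adjusted p = 1). Its resilient libraries lay above all non-defeated ones, as did those of 1.3% of genes, and an exact two-sided permutation test gave p = 0.0286, the smallest that 4 against 4 allows. The non-defeated libraries had been used to choose Gng12 for low values. For Spop, Mal2, Tppp and Arpc5 the log2 fold change ran from -0.07 to 0.09, and their groups overlapped.

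Between susceptible and non-defeated mice none of the 5 passed in edgeR or in DESeq2, against a background of 0.0376% by adjusted p. Tppp and Arpc5 had an unadjusted p under 0.05, as had 13.3% of all genes. Tppp was at -0.27 (SE 0.08, unadjusted p = 0.00643, adjusted p = 0.221 in edgeR). Its susceptible libraries lay below all non-defeated ones, a pattern seen in 4.4% of genes (exact two-sided permutation p = 0.0286, the smallest possible with 3 against 4). Arpc5 was at 0.21 (SE 0.09, unadjusted p = 0.0369, adjusted p = 0.349 in edgeR) with overlapping groups. Gng12 (-0.0085, SE 0.11), Spop (-0.0012, SE 0.08) and Mal2 (0.030, SE 0.10) differed by less than their errors.

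Between susceptible and resilient mice, whose own libraries did not choose the genes, 1 of the 5 passed against a background of 1.89% (0.873% lower in susceptible mice). Tppp fell by 0.35 on the log2 scale (SE 0.08, adjusted p = 0.0480 in edgeR's quasi-likelihood test), from 198 ± 11.5 normalized CPM in resilient (SD, n = 4) to 155 ± 11.9 in susceptible TRAP (n = 3). All 3 susceptible libraries were below all 4 resilient ones, as in 7.44% of genes, and the exact two-sided permutation p was 0.0286, the smallest possible. The fit also held the input and non-defeated libraries, which chose the genes and shared in its scaling and its estimate of the spread. The call was marginal. It was lost with RLE size factors (adjusted p = 0.0584), without the filter on low counts (0.0662), in a fit of the 2 groups alone (0.150), in a fit of the 11 TRAP libraries (0.119), and on leaving out any 1 library other than non-defeated numbers 1 and 9, with adjusted p up to 0.150, while the log2 fold change stayed between -0.40 and -0.29.

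Gng12 was at -0.23 in the same comparison (SE 0.11, unadjusted p = 0.0491, adjusted p = 0.236 in edgeR), and susceptible library number 10, at 14.8, lay among the resilient values. Without that library it was at -0.39 (adjusted p = 0.0414) and passed. Arpc5 was at 0.18 (SE 0.09, adjusted p = 0.270), Mal2 at 0.10 (SE 0.10, adjusted p = 0.586) and Spop at -0.08 (SE 0.08, adjusted p = 0.602), each by edgeR and each with overlapping groups. An unadjusted p under 0.05 was found for 20.9% of all genes here. Of the relatives, only Gnb5 passed, lower in susceptible mice by a log2 fold change of -0.36 (SE 0.08, adjusted p = 0.0382 in edgeR).

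**Figure D4:**
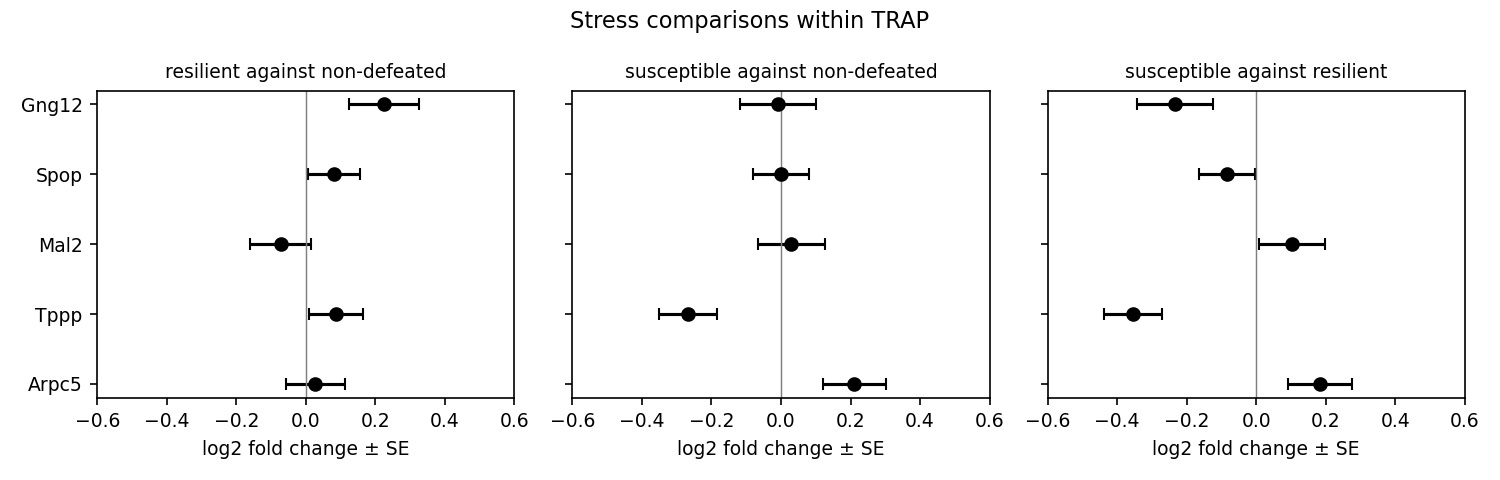
Log2 fold change ± SE of Gng12, Spop, Mal2, Tppp and Arpc5 in 3 comparisons within TRAP (4 non-defeated, 4 resilient and 3 susceptible libraries). Tppp in susceptible against resilient mice, at -0.35, was the 1 value with an adjusted p under 0.05.

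Other RNAs differed between the same groups. Hba-a1 was higher in susceptible than in resilient TRAP by 1.76 (adjusted p = 0.0411) and Hbb-bs by 2.04 (adjusted p = 0.0414), in edgeR's quasi-likelihood test, and 3 of the 4 red cell genes passed, against 1 of 4 in DESeq2. The 5 nuclear-retained RNAs had a median log2 fold change of 0.64, and 0 of 5 passed in edgeR (3 with an unadjusted p under 0.05), against 2 in DESeq2, which gave no adjusted p for another 2. The excitatory, oligodendrocyte, astrocyte and microglia sums kept 37.0%, 35.0%, 67.8% and 38.6% of input in susceptible TRAP, near their shares in the other TRAP groups. Between susceptible and resilient mice 0 of their markers passed in edgeR, and 1 excitatory marker passed in DESeq2. An unadjusted p under 0.05 in edgeR was found for 1 of 8 excitatory, 1 of 9 oligodendrocyte, 1 of 8 astrocyte and 0 of 8 microglia markers. The sum for choroid plexus and ependyma was 36.8% of input in non-defeated, 52.6% in resilient and 76.7% in susceptible TRAP, and its susceptible range of 418 to 657 normalized CPM overlapped the resilient range of 186 to 420. Mural markers stood at 56.8%, 67.5% and 89.8% in the same order, and other interneuron markers at 141%, 149% and 205%. Endothelial markers stood at 169%, 327% and 355% of a low input sum of 3.28 normalized CPM. In edgeR 0 markers of these 4 lists passed between susceptible and resilient mice. There the unadjusted p was under 0.05 for 1 of 3 choroid plexus and ependyma, 3 of 4 mural, 0 of 5 endothelial and 1 of 6 other interneuron markers. DESeq2 also called 0 of them, but gave no adjusted p for 2 mural and 2 endothelial markers. The part of any of these RNAs in the Tppp and Arpc5 values was not tested.

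Across the 11 TRAP libraries each gene was correlated with each of the 12 marker sums, on the log2 scale, giving 60 pairs. After Benjamini-Hochberg adjustment 0 pairs passed by Pearson's r (4 unadjusted) and 1 by Spearman's rho (4 unadjusted), both by permutation. That pair was Arpc5 and the red blood cell sum, with r = 0.89 (permutation p = 0.00092, adjusted 0.0552) and rho = 0.92 (permutation p = 0.00022, adjusted 0.0132). Because the susceptible libraries had the highest red cell sums in TRAP, the relation was recomputed in the 8 non-defeated and resilient libraries. That choice was made after seeing the data, and there r was 0.95 (permutation p = 0.00096, adjusted 0.0576) and rho 0.88. Of these 8 libraries, Arpc5 was highest, at 82.3 normalized CPM, in the resilient one with the highest red cell sum, 500. Susceptible library number 2 had a higher red cell sum, 742, and a lower Arpc5 level, 73.5. Without the 2 libraries farthest from the median red cell sum r was 0.77 over all TRAP libraries and 0.95 over the 8. Libraries numbered 1 to 6 gave r = 0.79 (n = 6) and those numbered 7 to 11 gave r = 0.98 (n = 5).

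For Tppp the red cell sum gave r = -0.64 and rho = -0.63 (permutation p = 0.0345 and 0.0446, adjusted 0.558 and 0.670), and over the 8 libraries r was 0.28. Nuclear-retained RNA gave r = -0.68 and rho = -0.74 for Tppp (permutation p = 0.0209 and 0.0126, adjusted 0.558 and 0.252) and r = -0.41 over the 8. Choroid plexus and ependyma gave r = -0.64 and rho = -0.59 for Tppp (permutation p = 0.0372 and 0.0620, adjusted 0.558 and 0.744) and r = -0.093 over the 8. Without the 2 libraries farthest from the median of the marker sum, r was -0.31, -0.78 and -0.45 for these 3 relations of Tppp, none of which passed. Arpc5 with nuclear-retained RNA gave r = 0.54 and rho = 0.78 (permutation p = 0.0889 and 0.00636, adjusted 0.566 and 0.191), with r = 0.70 without the 2 farthest libraries, and did not pass.

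**Figure D5:**
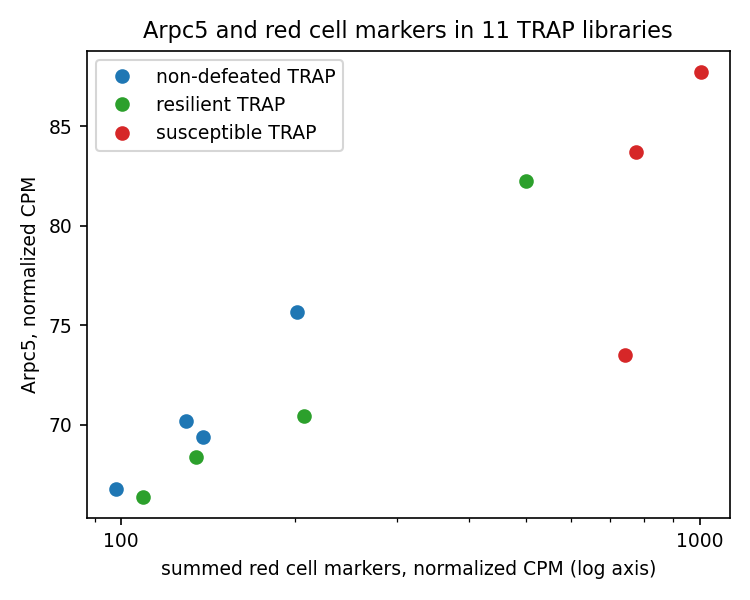
Arpc5 (normalized CPM) against the summed level of Hba-a1, Hba-a2, Hbb-bs and Alas2 (normalized CPM, log axis) in 4 non-defeated, 4 resilient and 3 susceptible TRAP libraries, each point a library. The resilient library with a red cell sum of 500 had 82.3 for Arpc5, within the susceptible range of 73.5 to 87.7. The susceptible library with a red cell sum of 742 had 73.5.

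The tested genes whose log2 level followed each of the 5 most closely over the 11 TRAP libraries were found by Pearson's r, as a description of libraries that share their group and composition. Arpc5 was followed by Alas2 (r = 0.93, rho = 0.78), which starts heme synthesis in red cell precursors, and by the hemoglobin genes Hbb-bs and Hbb-bt (both r = 0.90). Alas2 and Hbb-bs are part of the red cell sum used above in the same libraries, so this is not a separate result. Tppp was followed by Trim62 (0.96), Lzts3 (0.96) and Tub (0.95). Their log2 fold changes in non-defeated TRAP against input were 0.89 for Trim62, -1.14 for Lzts3 and -2.06 for Tub. Gng12 was followed by Mir219a-2 (0.97), Inmt (0.94) and Rela (0.94), the first at 0.0388 normalized CPM in TRAP on average. Spop was followed by C8g (0.94), Aspn (0.92) and Cyp26a1 (0.87), and Mal2 by Lingo4 (0.86) and Gm17597 (0.85), all of them at about 2 normalized CPM or less in TRAP.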

How the data were processed

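Hippocampal RNA from 11 TRAP and 3 input samples was analysed. Per the study's methods, full-length cDNA was made with SMART-Seq v4, Nextera XT was used for the libraries, and reads were single, 150 bp long. The authors deposited 1 table of raw read counts per Ensembl gene; the submitters' processing notes name STAR 2.5.3a, HTSeq and mm10. Strand use in counting was not given in the sources used here. IDs were named from GENCODE mouse release M 21 (37693 of 39017; the rest held 0.824% of counts).

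Counts were fitted in edgeR 4.0.16 (R 4.3.3) with TMM, filterByExpr and a quasi-likelihood test over 14 libraries in 4 groups, and p-values were adjusted over 21298 genes by Benjamini-Hochberg. Normalized CPM used TMM library sizes (factors 0.945 to 0.995 in TRAP, 1.10 to 1.12 in input), RPKM divided them by exonic length, and correlations used log2 CPM (prior count 2) with 100000 permutations. The code was tested on simulated data. The lowest chi-square per degree of freedom between replicates was 13.9, so no library was a copy. Each TRAP sample was 1 mouse; p-values measure the spread between these samples. Alternatives covered normalization, filters, DESeq2 1.42.0, fewer groups and leaving out each library.

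The 5 genes, the lists and the naming rule were chosen with earlier results of these data known. Named besides the 5 were, per family, passing genes with the 2 largest changes in each direction and the closest paralogs; per marker list, the gene highest in input and the one with the lowest ratio; and the 3 genes most like each of the 5. Gnb5 in susceptible against resilient mice, Hba-a2, Alas2, Neat1, Meg3, Miat and Snhg11 as list members, Sst and Npy as the other interneuron markers higher in TRAP, and Pvalb as the check of the capture were named besides. A gene that this rule names is not reported here. No promoter or protein sequence was used.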

Additional observations from a re-analysis of the deposited data

Results flagged for a closer look

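Tppp in 1 non-defeated TRAP library (number 9) had 212 normalized CPM, against 175 to 181 in the other 3, a gap large enough for Dixon's test to mark it. Of 10 groups of 4 libraries tested, this was the 1 marked, and chance marks about 1 in 20. Without that library Tppp kept its call in susceptible against resilient mice (-0.35, adjusted p = 0.0336 in edgeR).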

How the results depend on the processing

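No paired analysis was possible because each library has its own number, which does not tell whether an input and a TRAP library came from the same mouse. The comparison of TRAP with input treated the libraries as independent. The median log2 fold change of the 5 genes between non-defeated TRAP and input was -2.19. It was -2.37 with total counts only, which moved the median of all genes by -0.19, and, relative to the 500 genes nearest in a property, -2.28 for exonic length, -2.05 for GC content and, both chosen after seeing the data, -2.51 for coding length and -2.03 for 3' UTR length. Leaving out single libraries gave -2.24 to -2.15. Relatives called lower (44) and higher (18) became 53 and 12 with total counts only. In susceptible against resilient mice, 1 of the 5 genes passed, and 0 did with RLE size factors, with no filter, with 2 groups or with the 11 TRAP libraries; leaving out single libraries gave 0 to 1, and without susceptible number 10 the 1 gene was Gng12, not Tppp. Tppp kept its direction in all 23 alternatives and passed in 7. In the other stress comparisons 0 of the 5 passed under any alternative. The r of Arpc5 with red cell genes, 0.89, was 0.90 with total counts (adjusted p = 0.00840).

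Differences near 0 changed sign without being called. Gng12 in susceptible against non-defeated mice (-0.0085) became 0.0069 with total counts, 0.023 with the sample number as a covariate and, without single libraries, ranged from -0.16 to 0.089. Spop (-0.0012) became 0.0053 with RLE, 0.0087 with total counts, 0.00063 with no filter and 0.0033 with at least 10 counts, and ranged from -0.048 to 0.031. Mal2 ranged from -0.0017 to 0.058 there, and Arpc5 in resilient against non-defeated mice from -0.043 to 0.064. The causes were not tested. With 3 to 4 mice a group, smaller differences than that of Tppp may go uncalled, and so may larger ones with a larger error. Malat1 was higher in susceptible than in resilient TRAP by a log2 fold change of 1.18 (SE 0.31). It did not pass (adjusted p = 0.0641 in edgeR's quasi-likelihood test).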
